A study of Homo sapiens with 10 samples.

Results

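Translation after 4 h of nutlin-3a was compared with that of untreated cells in BJ cells, human fibroblasts immortalized by expression of hTERT, the catalytic subunit of telomerase. The comparison uses 4 of the 10 libraries of the series: an RNA-Seq library of poly(A) RNA and a Ribo-Seq library from untreated control cells, and the same pair from cells kept on nutlin-3a for 4 h. The other 6 libraries come from 2, 6 and 19 h of the same treatment, and both groups carried the same hTERT construct. Members were all genes with at least 5 FPKM (fragments scaled to transcript length and library size) in at least 1 library of each assay, which gave 7015 of the 11258 transcripts found in both tables. Every group held 1 library of an assay, so the differences could not be set against replicates, no p-value is given, and the only errors are counting errors.

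Nutlin-3a occupies the p53-binding pocket of MDM2, the ubiquitin ligase that keeps p53 low, so that p53 accumulates and induces its target genes. Ribo-Seq sequences the mRNA fragments that ribosomes protect from nuclease, here after elongation had been stopped with cycloheximide, and its FPKM value is read as ribosome density, the translation level of a transcript. Density follows the amount of mRNA and the number of ribosomes on each mRNA. Translational efficiency (TE), the log2 ratio of Ribo-Seq to RNA-Seq value, takes the amount of mRNA out. Values under 1 FPKM were set to 1, and a gene was counted as called where its change reached 2-fold. In bulk samples, a change in every cell and a change in a share of the cells cannot be told apart.

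The libraries were deep enough for single genes. Their totals, worked out from the steps between FPKM values, were 23845558 and 24433105 reads for RNA-Seq in control and 4 h, and 11763298 and 14460726 for Ribo-Seq. A tested transcript had a median of 506 Ribo-Seq reads in the control and 678 at 4 h, and the median counting SE of a log2 TE change was 0.10. Fibroblast identity was as labelled: all 12 fibroblast markers on the list were at 14.8 FPKM or more in the RNA-Seq control. Of other cell types, KRT8 and KRT18 were the only 2 of 8 epithelial markers over 5 FPKM there, CD68 the only 1 of 6 leukocyte markers, and none of 5 endothelial markers was.

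The scale of the Ribo-Seq values moved between both libraries. ZNF354B, a zinc finger gene with 1.74 FPKM by RNA-Seq in the control and 1.39 at 4 h, was the most abundant Ribo-Seq transcript, at 47041 FPKM in the control and 10987 FPKM at 4 h. It took 13.2% of the control Ribo-Seq reads and 3.08% of those at 4 h, and it failed the filter on RNA. LGALS1, the galectin gene next in abundance, went from 10961 to 13598 FPKM by Ribo-Seq and took under 1% of the reads in both. Over all tested genes, the median log2 change was -0.07 for RNA, 0.10 for density and 0.18 for TE. With both transcripts left out of the totals, the medians were -0.07, -0.06 and 0.02. Changes are therefore also given relative to the median of all tested genes.

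At this scale 181 genes were called higher in density (2.58% of tested genes) and 37 lower (0.527%). RNA was called higher for 99 genes (1.41%) and lower for 48 (0.684%). Of the 181 genes higher in density, 81 were also past 2-fold in RNA, 57 were between 1.5- and 2-fold in RNA in the same direction, and 43 stayed under 1.5-fold. Of the 37 lower in density, 27 were past 2-fold in RNA and 6 stayed under 1.5-fold. Of the 99 genes higher in RNA 81 were called higher in density, and of the 48 lower in RNA 27 were called lower in density, at the deposited scale, on which density is shifted up and RNA down. With each change taken relative to the median of all tested genes, 138 genes were higher and 55 lower in density, and without the 2 most abundant Ribo-Seq transcripts the counts were 120 and 64.

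TE was called higher for 61 genes (0.87%) and lower for 9 (0.128%), and 6317 of the 7015 genes stayed within 1.5-fold. The split depended on the scale: relative to the median of all tested genes 16 were higher and 16 lower, and without the 2 most abundant Ribo-Seq transcripts 17 and 14. Of the 60 higher genes with recovered reads 8 had a 95% counting interval wholly past 2-fold, as had 3 of the 9 lower genes. Of the 61 genes higher in TE, 32 were under 2-fold in density with RNA under 1.5-fold, 7 had RNA more than 1.5-fold lower, and 3 had RNA more than 1.5-fold higher.

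**Figure D1:**
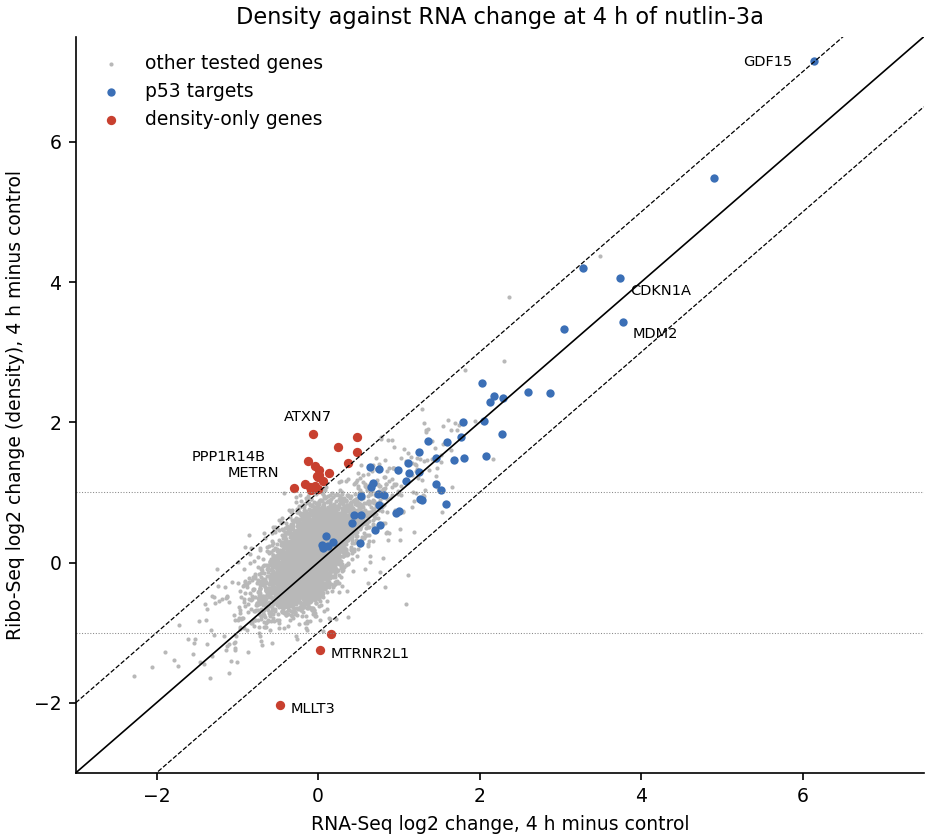
Log2 change of Ribo-Seq (density, vertical axis) against that of RNA-Seq (horizontal axis) at 4 h, with a point for each of the 7015 tested genes. The solid line marks equal change, the dashed lines a 2-fold change of TE and the dotted lines a 2-fold change of density. The p53 targets have a median TE change of 0.13, from -0.75 for TP53I3 to 1.00 for GDF15, which lies at the upper dashed line. The 22 density-only genes stand above or below the solid line at an RNA change under 1.5-fold.

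Density changes without a matching RNA change were taken as those past 2-fold in density and in TE, in the same direction, with RNA under 1.5-fold. There were 19 such genes higher (0.271%) and 3 lower (0.0428%), called density-only here. Among them 16 and 3 had a counting SE of TE of at most 0.3 and at least 1 FPKM in all 4 libraries. Relative to the median of all tested genes, 10 of the 19 and all 3 of the lower genes kept their call. Against the 2 h library in place of the control, 10 of the 19 and 1 of the 3 did, and 18 of the 19 had a positive TE change. That comparison reuses the 4 h libraries on which the genes were chosen, so the same direction was favoured in advance. The median TE change of all tested genes against the 2 h library was itself 0.13. PTPLA lay just inside the threshold, with a log2 density change of 1.04 and a TE change of 1.13. DGCR6L, with 1.00 in both after rounding, lay just outside.

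The density-only genes that were higher belong to no single pathway. ATXN7, a subunit of the deubiquitinase module of the SAGA coactivator, had the largest TE change. Its RNA-Seq value was 6.00 FPKM in the control and 5.74 at 4 h, and its Ribo-Seq value was 72.3 and 259 FPKM. The TE change was 1.90 (95% counting interval 1.77 to 2.03). At 2, 6 and 19 h its Ribo-Seq value was 86.4, 334 and 198 FPKM, so the control and 2 h libraries were low and the later ones high. Its control TE was at percentile 99.9 of the tested genes, and whether all its Ribo-Seq reads lie in the reading frame was not tested.

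PPP1R14B, an inhibitor of protein phosphatase 1, was the most abundant of the group. It had 138 and 127 FPKM by RNA-Seq in control and 4 h, and 130 and 356 FPKM by Ribo-Seq. The TE change was 1.58 (1.47 to 1.69), and 1.14 against the 2 h library. GUK1, the guanylate kinase that turns GMP into GDP, had 73.1 and 73.9 FPKM by RNA-Seq, with 98.9 and 234 FPKM by Ribo-Seq. Its TE change was 1.23 (1.08 to 1.38), and 1.34 against the 2 h library. These and MTRNR2L1, described below, were the 3 density-only genes that kept their call under all 11 alternatives run. ATXN7, METRN and RP11-677C1.2 lost theirs only under the filter of a mean of at least 20 FPKM in each table. That filter acts on abundance and not on the change. Leaving out the filter, or taking a 1.5-fold threshold, could not remove a call.

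METRN encodes meteorin, a secreted factor of nerve and glial cells. Its RNA-Seq values were 17.5 and 17.1 FPKM, and its Ribo-Seq values 11.6 and 29.9 FPKM, for a TE change of 1.40 (1.08 to 1.73). At 6 and 19 h its Ribo-Seq value stayed at 31.3 and 33.9 FPKM, while RNA-Seq was 19.9 and 17.9 FPKM. RP11-677C1.2, a transcript with no gene name in the table, had 16.2 and 19.3 FPKM by RNA-Seq and 4.68 and 14.6 FPKM by Ribo-Seq. Its TE change was 1.40 (0.92 to 1.88). Both had nearly the same TE change against the 2 h library, with 1.43 and 1.41.

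RPS6KB2, the S6 kinase S6K2 that acts downstream of mTOR, had 25.1 and 23.5 FPKM by RNA-Seq and 6.99 and 14.8 FPKM by Ribo-Seq. Its TE change was 1.18 (0.87 to 1.48). Relative to all tested genes TE was 0.9976 and density 0.9775, both under the threshold. RPS6KB2 kept its call in 6 of the 11 alternatives. NTAN1, the amidase that opens the N-degron pathway for proteins with N-terminal asparagine, went from 14.5 to 30.8 FPKM by Ribo-Seq at 35.5 and 34.4 FPKM by RNA-Seq. It was high at 4 h only, with 13.0 FPKM at 2 h and 10.9 at 6 h. PTPLA, a dehydratase of very long-chain fatty acid synthesis, went from 19.3 to 39.6 FPKM by Ribo-Seq. SAT1, the acetyltransferase that degrades spermidine and spermine, went from 8.06 to 21.6 FPKM while RNA-Seq was 8.47 and 10.99 FPKM.

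The other named genes were of mixed function. KRT10, a type I keratin, had 17.4 and 17.5 FPKM by RNA-Seq with 33.1 and 77.2 FPKM by Ribo-Seq, and its TE change of 1.22 was 0.66 against the 2 h library. TUSC1 had a TE change of 1.36 (1.05 to 1.66) and 0.51 against the 2 h library, so that both were already higher at 2 h than in the control. STARD10, a phospholipid transfer protein, had a TE change of 1.24 (0.70 to 1.79), which rests on 52 Ribo-Seq reads in the control. AMMECR1L had 1.13 (0.96 to 1.30). VHL, the substrate receptor of the ubiquitin ligase for hypoxia-inducible factors, had 1.10 (0.78 to 1.42), with 3.16 and 7.07 FPKM by Ribo-Seq at 7.71 and 8.03 FPKM by RNA-Seq. ZC3H12A, an endonuclease for cytokine mRNAs, had 1.10 (0.59 to 1.61).

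**Figure D2:**
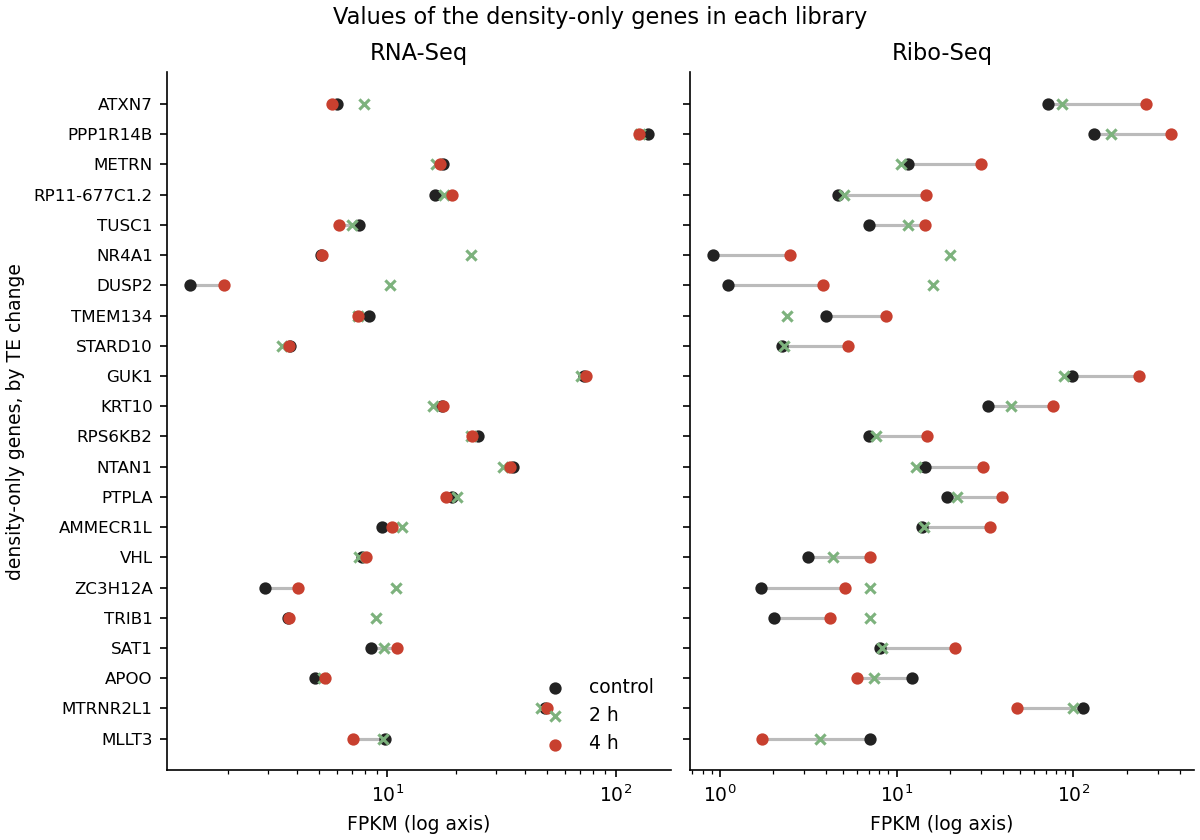
FPKM of the 22 density-only genes in the RNA-Seq and Ribo-Seq libraries of the control, 2 h and 4 h (logarithmic axes, a library per point, lines joining control and 4 h, values not floored). RNA-Seq values of control and 4 h are within 1.5-fold of each other by the rule, while Ribo-Seq values at 4 h lie to the right of the control for 19 genes and to the left for APOO, MTRNR2L1 and MLLT3.

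The 3 genes lower in density alone were MLLT3, APOO and MTRNR2L1. MLLT3, a chromatin reader of the super elongation complex, had 9.80 and 7.10 FPKM by RNA-Seq and 7.11 and 1.74 FPKM by Ribo-Seq. Its TE change was -1.57 (-2.05 to -1.08), and it was -0.67 against the 2 h library, where Ribo-Seq was 3.71 FPKM. APOO, a subunit of the complex that shapes mitochondrial cristae, had 4.80 and 5.34 FPKM by RNA-Seq and 12.2 and 6.00 FPKM by Ribo-Seq. Its TE change was -1.17 (-1.67 to -0.68), and -0.35 against the 2 h library. MTRNR2L1, a nuclear copy of the humanin sequence, had 49.3 and 50.1 FPKM by RNA-Seq with 114 and 47.8 FPKM by Ribo-Seq, and a TE change of -1.27 (-1.42 to -1.13). It is nearly identical to mitochondrial 16S rRNA and to its other nuclear copies, so the origin of its reads is uncertain. MTRNR2L9, another copy, had a TE change of -1.05.

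**Figure D3:**
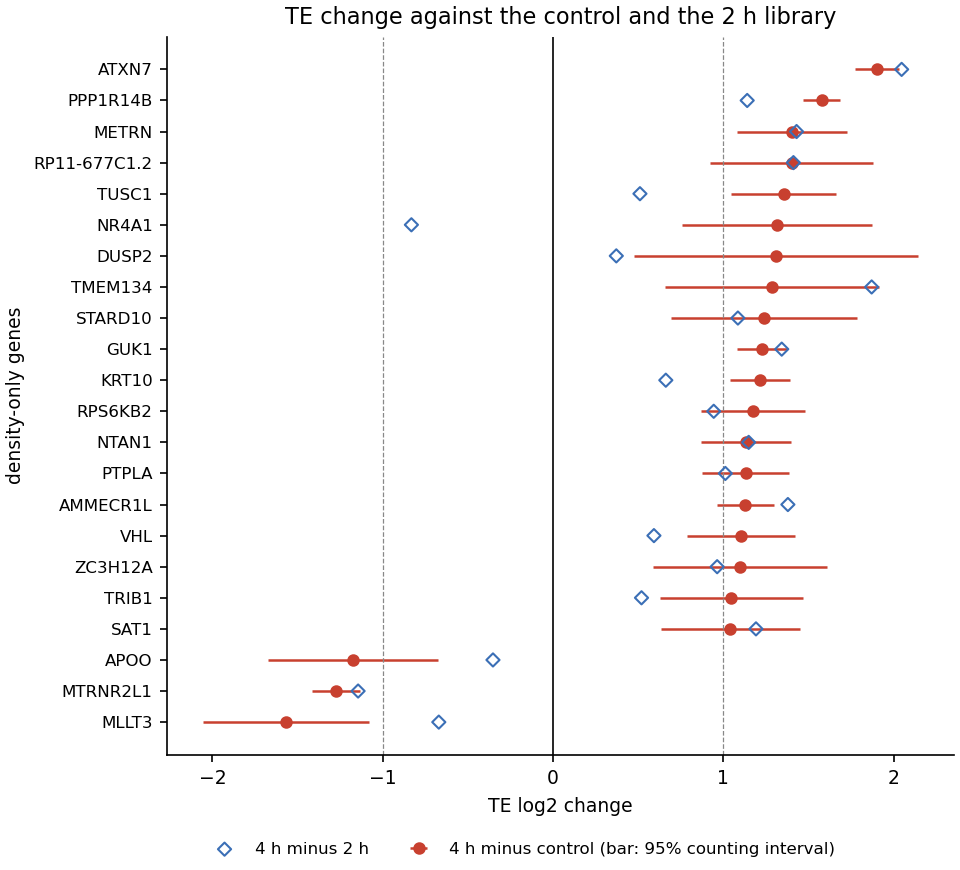
Log2 TE change of the 22 density-only genes at 4 h, against the control (circles, with 95% counting intervals) and against the 2 h library (open diamonds). Diamonds lie near the circles for ATXN7, METRN, RP11-677C1.2, GUK1 and NTAN1. They lie nearer 0 for TUSC1, KRT10, MLLT3 and APOO, and for NR4A1 the diamond is on the other side of 0.

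The start regions of these genes ranged widely in base composition. The 30 bases upstream of the transcription start are given for 4 density-only genes that have a single start in RefSeq, since they span the range of base composition in the group. They are from GRCh38.p14 and read 5′ to 3′ on the gene's strand, with G and C in capitals.
METRN, higher, chr16:715088-715117, plus strand: GCaGGCCCCGCCCCCttCCCGaCCCGCtCC
PPP1R14B, higher, chr11:64246944-64246973, minus strand: GGGGGtGtGGtCGGGGGGCGGaGGaaGaGC
KRT10, higher, chr17:40822615-40822644, minus strand: atataaaGGCttGtCaCtGtCCttGGtaGC
MLLT3, lower, chr9:20622500-20622529, minus strand: GGGtGtCaGGCGCCaCGGCGCatGCtCCGC

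G or C made up 25 of these 30 bases in METRN, 23 in PPP1R14B and MLLT3, and 13 in KRT10. Over the whole RefSeq window of 300 bases (250 before and 50 after the start), GC content was 79.7% in METRN, 65.3% in PPP1R14B, 68.0% in MLLT3 and 37.7% in KRT10. The 16 higher density-only genes with a window had a median of 66.5%, against 65.3% over all 5770 tested genes with one (82.3% of those tested). In the 50 bases from the annotated start, their median was 76.0% against 66.7% over all.

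Across all genes, TE and GC content moved together, though weakly. In 5 equal bins of genes, from the lowest GC content (median 54.1%) to the highest (76.0%), the median TE change was 0.10, 0.14, 0.17, 0.22 and 0.26. The density change was 0.03 in the lowest bin and 0.20 in the highest, whereas RNA was at -0.07 and -0.08. TE was called higher for 5 of 1154 genes in the lowest bin and for 18 of 1154 in the highest, and for 5 and 26 with bins made by the 50 bases after the start. The interquartile ranges of all bins overlapped, from -0.08 to 0.29 in the lowest and from 0.06 to 0.44 in the highest. The difference between the outer bins had the same direction in transcripts shorter and longer than the median, 0.12 against 0.27 and 0.08 against 0.24, and against the 2 h library, 0.07 against 0.18. At 6 and 19 h against the control it was larger, from -0.18 to 0.19 and from -0.23 to 0.10. Genes in a bin share the same 4 libraries, and GC preference of library preparation was not tested. Over 5 bins of transcript length the median TE change was between 0.14 and 0.21, and TE was called higher for 25 genes in the shortest bin and 5 in the longest. The genes called higher in TE had a median transcript length of 1736 nt, against 2590 nt over all tested genes with a recovered length.

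**Figure D4:**
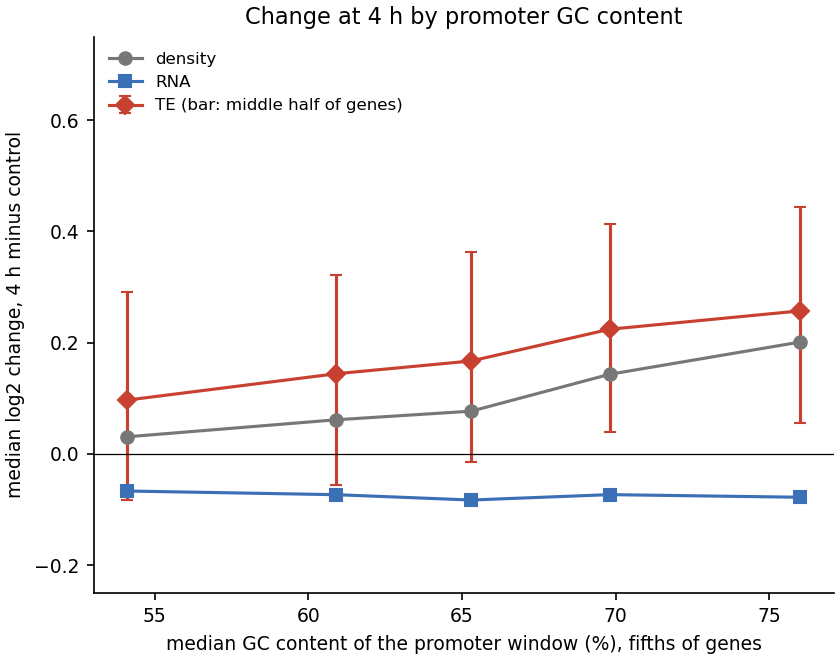
Median log2 change at 4 h of TE, density and RNA (vertical axis) in 5 bins of 1154 genes by GC content of the RefSeq window (horizontal axis, median of each bin). Bars on TE span the interquartile range of genes. TE goes from 0.10 to 0.26 and density from 0.03 to 0.20, while RNA stays between -0.08 and -0.07.

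The opposite pattern is an RNA change that density did not follow. At the deposited scale, density was under 1.5-fold for 4 of the 99 genes higher in RNA and for 13 of the 48 lower. With TE past 2-fold required as well, the pattern was met by 1 gene in each direction. MT1A, a metallothionein that binds zinc and copper, had 10.8 and 23.3 FPKM by RNA-Seq and 17.5 and 15.4 FPKM by Ribo-Seq, a TE change of -1.29 (-1.84 to -0.74). Metallothionein genes are near-identical copies, and only reads with a unique hit were counted, so this value is uncertain. MT1G had a TE change of -1.18 on few reads, with a counting SE of 0.48. RMI2, which stabilizes the complex of the BLM helicase, had 13.2 and 5.56 FPKM by RNA-Seq and 8.87 and 8.31 FPKM by Ribo-Seq, a TE change of 1.15 (0.76 to 1.55). NUDT6 had the lowest TE change of all tested genes. Its RNA-Seq value was 30.3 and 64.4 FPKM and its Ribo-Seq value 6.33 and 4.20 FPKM, a TE change of -1.68 (-2.14 to -1.21). This gene lies antisense to FGF2, and without strand the reads of both cannot be told apart. NUDT6, MT1G, MTRNR2L9 and the density-only genes NR4A1, DUSP2 and TMEM134 are outside the naming rule and were chosen after their values were seen.

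p53 targets had more members called higher in density than any other list, and their RNA had changed about as much. Of 54 tested targets 34 were called higher in density, none lower, and 33 were called higher in RNA. The shares called higher over all tested genes were 2.58% in density and 1.41% in RNA. The median change was 1.26 in RNA, 1.31 in density and 0.13 in TE, the last -0.05 relative to all tested genes. CDKN1A, which encodes the cyclin-dependent kinase inhibitor p21, went from 68.6 to 915 FPKM by RNA-Seq and from 164 to 2729 FPKM by Ribo-Seq, with a TE change of 0.32 (0.23 to 0.41). MDM2 went from 14.9 to 203 FPKM by RNA-Seq and from 5.45 to 59.0 FPKM by Ribo-Seq, a TE change of -0.33 (-0.48 to -0.19), but 0.36 against the 2 h library. SESN1 and SESN2, the sestrins that restrain mTOR, had TE changes of -0.16 (-0.52 to 0.21) and 0.28 (-0.04 to 0.59).

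Density was raised less than RNA for some p53 targets. TP53I3, an oxidoreductase of the quinone family, went from 7.64 to 23.0 FPKM by RNA-Seq and only from 13.2 to 23.6 FPKM by Ribo-Seq, a TE change of -0.75 (-1.01 to -0.49). CYFIP2, of the complex that drives actin branching, had -0.56 (-0.87 to -0.26). At 6 and 19 h, against the same control, the TE change was -0.28 and -0.46 for TP53I3 and -0.52 and -0.46 for CYFIP2. At the other end were IER5, with a TE change of 0.72 (0.58 to 0.86) and 0.13 against the 2 h library, and BTG2, an antiproliferative gene, with 0.59 (0.09 to 1.10). GDF15, a stress-induced cytokine, was past 2-fold in TE with 1.00, but its control RNA-Seq value of 0.245 FPKM was below the floor and the counting interval reached from -0.22 to 2.23.

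ATF4 targets of the amino acid response were also higher in both RNA and density. Of 45 tested genes 13 were called higher in density and 11 in RNA, none lower, against 2.58% and 1.41% of all tested genes called higher. The median change was 0.60 in RNA and 0.70 in density, and that of TE was 0.07, which is -0.10 relative to all tested genes. TE was above the median of all tested genes in 13 of the 45. ATF4, the transcription factor whose own translation depends on upstream reading frames, had 150 and 199 FPKM by RNA-Seq and 73.4 and 129 FPKM by Ribo-Seq, a TE change of 0.41 (0.32 to 0.50). DDIT3, the factor CHOP, also under an upstream reading frame, went from 10.8 to 18.5 FPKM by RNA-Seq and from 5.97 to 20.6 FPKM by Ribo-Seq. Its TE change of 1.01 (0.59 to 1.43) was the highest of the list. DDIT4, an mTOR inhibitor, went from 3.05 to 34.2 FPKM by RNA-Seq and from 2.87 to 59.6 FPKM by Ribo-Seq, a TE change of 0.89 (0.43 to 1.35). PSAT1, of serine synthesis, stood at -0.34 (-0.47 to -0.20). Of 20 mRNAs with regulatory upstream reading frames, some of them on the ATF4 list too, 2 were called higher in TE, DDIT3 and SAT1. The share over all tested genes was 0.87%, and the TE median of these mRNAs was 0.09.

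Immediate-early genes, the first to be transcribed after a stimulus, were among the lists with a TE median above that of all tested genes, by 0.19. Of 43 tested genes 13 were called higher and 1 lower in density, 4 were called higher in RNA and 4 in TE. The shares over all tested genes were 2.58%, 0.527%, 1.41% and 0.87% in the same order. The median change was 0.39 in RNA, 0.68 in density and 0.37 in TE. TE was above the median of all tested genes in 32 of the 43. SRF, the serum response factor, had 25.1 and 21.7 FPKM by RNA-Seq and 8.32 and 15.2 FPKM by Ribo-Seq, a TE change of 1.08 (0.89 to 1.27). TRIB1, a pseudokinase adaptor, had 3.68 and 3.69 FPKM by RNA-Seq and 2.04 and 4.22 FPKM by Ribo-Seq, with 1.05 (0.63 to 1.47). NR4A1, an orphan nuclear receptor, and DUSP2, a MAP kinase phosphatase, both had 1.31. SRF had a higher Ribo-Seq value at 2 h than at 4 h, with 16.7 FPKM. TRIB1, NR4A1 and DUSP2 reached the 5 FPKM of the Ribo-Seq filter in the 2 h library alone. For these genes a higher value at 2 h than at 4 h was therefore fixed by the filter. NR4A1 had 5.14, 23.4 and 5.16 FPKM by RNA-Seq in control, 2 h and 4 h, and 0.920, 20.1 and 2.50 FPKM by Ribo-Seq. DUSP2 had 1.37, 10.3 and 1.92 FPKM by RNA-Seq, and 1.11, 15.99 and 3.85 FPKM by Ribo-Seq. Against the 2 h library the median TE change of the list was 0.11, which is -0.02 relative to all tested genes.

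**Figure D5:**
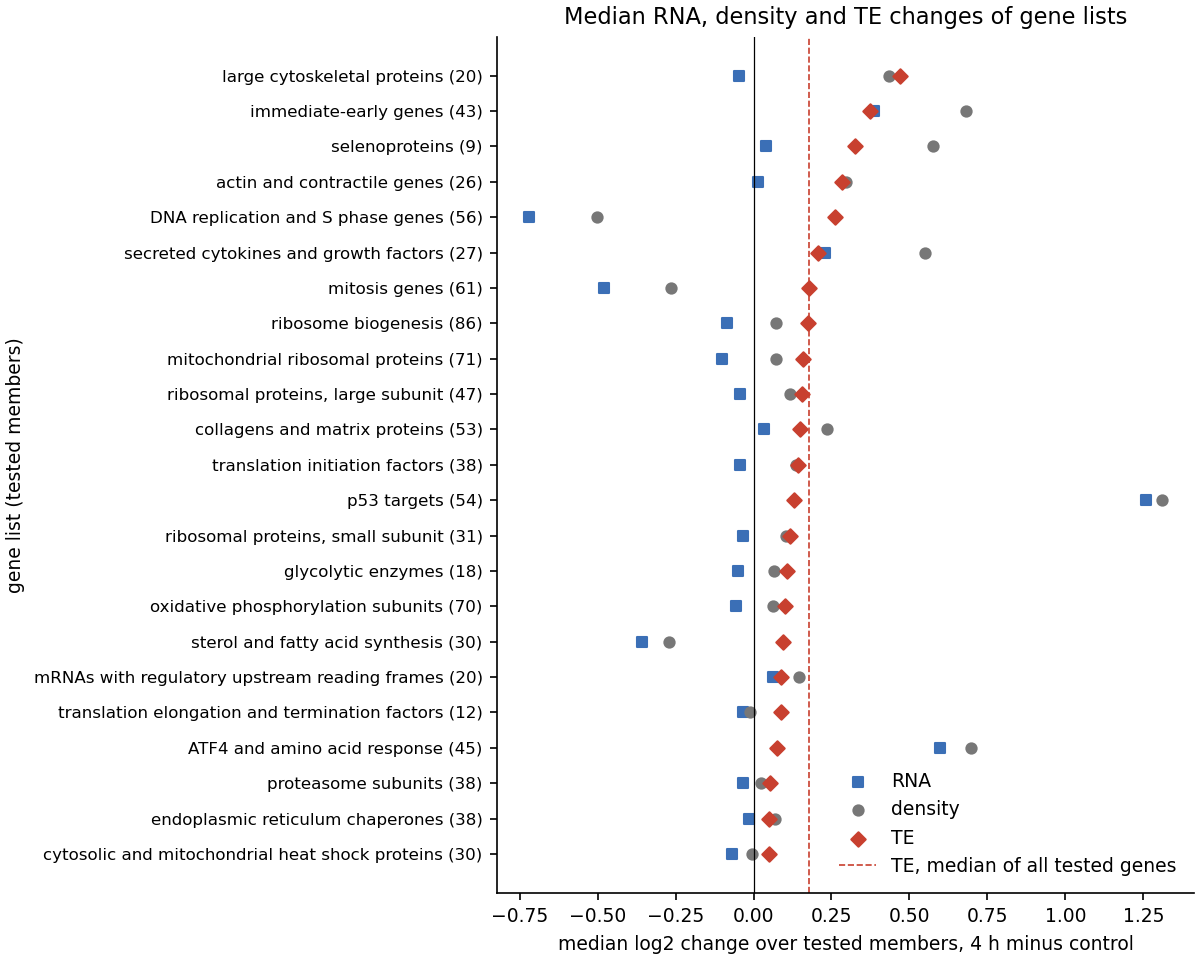
Median log2 change of RNA, density and TE at 4 h over the tested members of 23 gene lists (number in brackets), ordered by TE. The dashed line is the median TE change of all tested genes, 0.18. RNA and density spread from -0.72 to 1.31, whereas TE medians stay between 0.05 and 0.47.

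Genes of the translation machinery had TE medians at or below that of all tested genes at 4 h. No ribosomal protein, initiation, elongation or mitochondrial ribosomal protein gene was called in density, RNA or TE, of 47 proteins of the large and 31 of the small subunit, 38 initiation factors, 12 elongation and termination factors and 71 mitochondrial ribosomal proteins tested, where 0.87% of all genes were called higher in TE and 0.128% lower. The median TE change was 0.16 for the large and 0.12 for the small subunit, -0.02 and -0.06 relative to all tested genes. The elongation and termination factors had 0.09, which is -0.09 relative to all, with 4 of 12 above the median of all genes, and EEF1A1, the factor that brings aminoacyl-tRNA to the ribosome, had the lowest TE change among them with -0.41 (-0.42 to -0.39). Against the 2 h library the subunit medians were higher than that of all genes, by 0.16 and 0.13, while at 6 h against the control they were -0.997 and -0.936. Members were uneven. RPL41, the shortest ribosomal protein, went from 1782 to 3213 FPKM by Ribo-Seq at 1176 and 1088 FPKM by RNA-Seq, a TE change of 0.96 (0.92 to 1.00), and RPS15 had 0.64 (0.58 to 0.70). RPL17 had -0.44 (-0.49 to -0.38) and RPSA -0.36 (-0.53 to -0.19). Ribosomal proteins have many processed pseudogenes. Reads were mapped to protein-coding isoforms, so a read from such a copy could count for the gene, and single values are uncertain. EIF5A, which helps ribosomes through proline stretches, had the highest TE change of the initiation factors with 0.68 (0.46 to 0.91).

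A 5′ terminal oligopyrimidine tract is the element through which mTOR controls the mRNAs of most cytosolic ribosomal proteins and many translation factors. A start with C and 4 further pyrimidines (C or T, on the gene's strand) was looked for at the annotated RefSeq starts. Any start of a gene could count, and 506 of the 5770 genes with a window had it, 8.77%. It stood at 4.07% of all 35116 single RefSeq windows. A gene can have several windows, so the share of genes and the share of windows are not comparable. The 506 genes had a median TE change of 0.17, against 0.18 in the other genes. Among ribosomal proteins it was 0.15 in the 47 with such a start and 0.05 in the 16 without. Annotated starts need not be those used in BJ cells.

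Cell-cycle genes had medians below 0 in RNA and in density. DNA replication and S phase genes had medians of -0.72 in RNA, -0.50 in density and 0.26 in TE over 56 tested genes. Of these 16 were called lower in RNA and 10 in density, against 0.684% and 0.527% of all tested genes. E2F7, a p53-induced repressor, was called higher in both. Relative to all tested genes the TE median was 0.08, and against the 2 h library -0.01. E2F1, the factor that drives S phase genes, had 27.3 and 15.4 FPKM by RNA-Seq but 6.18 and 7.13 FPKM by Ribo-Seq, a TE change of 1.03 (0.73 to 1.33), and 1.14 against the 2 h library. GMNN, geminin, had 0.71 (0.46 to 0.97). RFC4, a subunit of the clamp loader, went the other way, with 18.1 and 8.42 FPKM by RNA-Seq and 20.6 and 6.92 FPKM by Ribo-Seq, a TE change of -0.47 (-0.81 to -0.13), but 0.41 against the 2 h library. Of 61 mitosis genes none was called in RNA, density or TE, where at most 2.58% of all tested genes were called in either direction. The medians were -0.48, -0.26 and 0.18, the last equal to that of all tested genes.

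Sterol and fatty acid synthesis genes were lower too, with medians of -0.36 in RNA, -0.27 in density and 0.10 in TE over 30 tested genes. INSIG1, the sterol sensor partner, went from 10.3 to 3.91 FPKM by Ribo-Seq and was called lower in density and RNA. HSD17B7, of cholesterol synthesis, was called lower in density with RNA under 1.5-fold: 4.48 and 3.71 FPKM by RNA-Seq and 8.93 and 4.30 FPKM by Ribo-Seq, a TE change of -0.79 (-1.34 to -0.23). FASN, fatty acid synthase, had 0.64 (0.56 to 0.73), but -0.43 against the 2 h library.

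Structural genes depended on the reference library. Large cytoskeletal proteins had the highest TE median of the 23 lists plotted, with 0.47 over 20 tested genes, 0.29 relative to all tested genes. PLEC, plectin, was the 1 member called, in TE, where 0.87% of all tested genes were called higher. It went from 14.6 to 28.2 FPKM by Ribo-Seq at 167 and 153 FPKM by RNA-Seq. Its TE change was 1.07, with no read number recovered. NES, nestin, and SPTBN1, a spectrin, each had 0.84. At 2 h the Ribo-Seq values of PLEC, NES and SPTBN1 were higher than at 4 h, with 78.2, 125 and 13.0 FPKM. The list's TE median at 4 h against the 2 h library was -0.79. Against the control it was 1.29, 1.51 and 1.49 at 2, 6 and 19 h, so 4 h was the time nearest the control. Collagens and matrix proteins had 0.15 against the control and -0.59 against the 2 h library over 53 genes. Their TE medians at 2, 6 and 19 h against the control were 0.81, 1.01 and 0.96. Actin and contractile genes at 4 h had the same direction against the control and the 2 h library, with 0.28 and 0.29 over 26 genes. TPM2, a tropomyosin, went from 977 to 1589 FPKM by Ribo-Seq at 396 and 391 FPKM by RNA-Seq, a TE change of 0.72 (0.68 to 0.76), while ACTA2, smooth muscle actin, had -0.38 (-0.55 to -0.20) as its RNA-Seq value went from 21.5 to 48.3 FPKM.

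Protein folding and turnover genes lay below the median of all genes in TE. The medians were 0.05 for 38 endoplasmic reticulum chaperones, 0.05 for 30 heat shock proteins and 0.05 for 38 proteasome subunits, or -0.13, -0.13 and -0.12 relative to all tested genes. Of these genes 13, 10 and 11 were above that median. Against the 2 h library the relative medians were -0.18, -0.15 and -0.01. No gene of the 3 lists was called in TE, where 0.87% of all tested genes were called higher and 0.128% lower. In density 1 of the 30 heat shock proteins was called higher, against 2.58% of all tested genes. In RNA 1 was called higher as well, against 1.41%. SERP1, of the translocon, had the highest TE change of the endoplasmic reticulum list, with 0.61 (0.46 to 0.77), and SEC61A1, the channel subunit, had -0.29 (-0.36 to -0.22).

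Selenoproteins, whose mRNAs recode a UGA codon, had a TE median of 0.32 over only 9 tested genes of 19 listed. SEPW1 had 27.04 and 23.3 FPKM by RNA-Seq and 15.4 and 27.002 FPKM by Ribo-Seq, a TE change of 1.02 (0.70 to 1.34), and C11orf31 (selenoprotein H) had 0.69 (0.47 to 0.92). Secreted cytokines and growth factors were higher in density for 9 of 27 tested genes and lower for BMP4, against 2.58% and 0.527% of all tested genes. Their TE median was 0.21. IL11, a cytokine of the IL-6 family, went from 13.3 to 32.6 FPKM by RNA-Seq and from 8.31 to 38.1 FPKM by Ribo-Seq, a TE change of 0.91 (0.67 to 1.14), and 1.06 against the 2 h library. Oxidative phosphorylation subunits, glycolytic enzymes and ribosome biogenesis genes had TE medians of 0.10, 0.11 and 0.17. None of their 70, 18 and 86 tested genes was called in density or TE, where at most 2.58% of all tested genes were called in either direction. UTP18, of the small subunit processome, had the highest TE change of the ribosome biogenesis genes, 0.85 (0.65 to 1.04).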

How the data were processed

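RNA-Seq and Ribo-Seq libraries of BJ cells were analysed at the transcript level. With Bowtie, the authors mapped reads to 1 protein-coding isoform of each gene, kept unique hits, and deposited FPKM values, fragments scaled to transcript length and library size. The RNA-Seq table was assigned by its name. The methods describe density from reads in the coding sequence, but the columns say total, and transcript lengths recovered from both tables were mostly the same (87.0% of 1535), so reads in untranslated regions may be included. Of the columns with values of single samples, 0 were left out. The study used controls of the same sequencing run. The run of the 4 h libraries is not given in the sources used here, so time and run cannot be told apart.

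Tested transcripts had at least 5 FPKM in any column of each table, and values were floored at 1 FPKM. Log2 changes were 4 h minus control, and TE changes were density minus RNA. Depth is unknown from FPKM alone, so lengths, totals and reads were recovered from the spacing of values for 11116 of 11258 transcripts. Counting SEs are the square root of the summed reciprocal reads divided by the natural log of 2, and intervals are 1.96 SEs. PCR copies were not distinguishable. The calling code was run on simulated libraries with known changes, which checks the code and not the spread between cultures. Alternatives covered the pseudocount, floor, filter, threshold, baseline library, centring, rescaling and length. With 1 library a group there is no test.

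The tested genes, gene lists and rules were chosen with earlier results of these data known, and lists are described by counts and medians. Named genes had a counting SE of TE of at most 0.3 and all 4 values at 1 FPKM or more. They were up to 12 density-only genes per direction, up to 5 RNA-only genes per direction, the 2 highest and 2 lowest members of each list with up to 6 past 2-fold, the 2 most abundant Ribo-Seq transcripts and the pathway genes CDKN1A, MDM2, SESN1, SESN2 and ATF4. VHL, ZC3H12A, E2F7, PLEC, GDF15 and DGCR6L were also named, after their values were seen. Not all genes that met the rule are printed, and some items are not reported here. Windows around starts are from RefSeq (GRCh38.p14), where 6953 of 7015 gene IDs matched a symbol. Python 3.11.15 with numpy 2.4.6 and pandas 2.3.3 was used.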

Additional observations from a re-analysis of the deposited data

Results flagged for a closer look

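Medians of TE changed sign between 4 h and a neighbouring time for several lists. None of these differences was tested, since each time held 1 library per assay, and all times share the control. For the large ribosomal subunit the median was 0.157 at 4 h, -0.154 at 2 h and -0.997 at 6 h. For the small subunit it was 0.117, -0.144 and -0.936. Oxidative phosphorylation subunits had 0.102 at 4 h, -0.139 at 2 h and -0.368 at 6 h. At 4 and 6 h, initiation factors had 0.144 and -0.298, mitochondrial ribosomal proteins 0.16 and -0.284, and ribosome biogenesis genes 0.174 and -0.182. With the median of all tested genes subtracted, all of these 4 h values are below 0.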

How the results depend on the processing

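The counts depended on scale, filter and threshold, and are given here as genes higher and lower. Other counts of genes called in density, in TE or density-only stayed within 1.5 times those of the report. Genes with an RNA change that density did not follow and a TE change past the threshold, 1 in each direction in the report, were between 0 and 50. List medians of TE below that of all tested genes turn negative when it is subtracted. Relative to the median of all tested genes, 16 and 16 were called in TE and 10 and 6 were density-only. Rescaled without the 2 most abundant Ribo-Seq transcripts, 120 and 64 were called in density, 17 and 14 in TE, and 9 were density-only higher. With 2 h as the baseline, 109 were lower in density, 36 lower in TE, and 32 and 27 density-only. With 1 FPKM added in place of the floor, 20 were lower in density, 25 higher in TE and 9 density-only higher. A floor of 5 FPKM left 19 lower in density. Without the filter on low values, 99 were lower in density, 148 and 40 called in TE, and 44 and 19 density-only. With a mean of at least 20 FPKM in each table, which left 2583 genes, the counts were 48 and 2 in density, 10 and 1 in TE, and 2 and 1 density-only. At 1.5-fold they were 729 and 229, 648 and 50, and 287 and 33. With the sliding cut-off, set by the spread of genes at a like level, they were 433 and 92, 842 and 58, and 188 and 17. The cause of these moves was not tested, apart from the fewer genes under the stricter filter and the wider thresholds.

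No paired analysis was possible because each group holds 1 library per assay and every replicate number is 1. For the same reason no replicate could be left out. Depth limits single values, with a median counting SE of TE of 0.10, and leaves the spread between cultures unknown.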

Other observations

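Most histone mRNAs lack a poly(A) tail, and 3 of 66 listed histone genes passed the filter on RNA-Seq of poly(A) RNA, HIST1H2AC, HIST1H1C and HIST1H2BK, with TE changes of 0.26, -0.21 and -0.27. Of the 66, 39 had at least 20 FPKM of Ribo-Seq in the control or at 4 h, and 37 of these were under 5 FPKM of RNA-Seq in the control or listed in the Ribo-Seq table alone. The median density change of the 39 at 4 h was -0.299, against 0.10 over all tested genes, and 34 of 39 were lower. The range was -0.928 to 0.267. None was past 2-fold, where 2.58% of all tested genes were called higher and 0.527% lower. HIST1H2BJ went from 1191 to 677 FPKM. The median was -0.388 at 2 h, -2.96 at 6 h and -4.55 at 19 h. Without a matching RNA value, less mRNA and fewer ribosomes on it cannot be told apart.

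In all, 49 transcripts with at least 20 FPKM of Ribo-Seq failed the filter or were in the Ribo-Seq table alone. None was past 2-fold higher in density and 2 were past 2-fold lower, where 2.58% and 0.527% of all tested genes were. The 2 were ZNF354B and C1orf213, the latter from 145 to 20.8 FPKM. Both were chosen after their values were seen.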
